A study of Mus musculus with 3 samples.

Results

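Expression of 10 genes of the T-helper 1 programme was examined in RNA-seq libraries of mouse T-helper 1 cells: the transcriptional regulators Tbx21, Runx3, Hlx, Eomes and Stat4, and the receptor chains Il12rb1, Il12rb2, Il18r1, Il18rap and Ifngr1. The genes were chosen by name, and all 10 were found among the 50600 genes of the deposited tables. The samples were primary cells of strain C57BL/6NJ labelled T-helper 1, in 1 group of 3 biological replicates, each with its own biosample record but under a common donor record; age and sex are not given. No treatment, dose or control group is stated in the labels, and the file headers alone carry a 16 hr tag. With 1 group there was no comparison between conditions, so the 10 genes were compared with one another inside a library, and their spread is that over the 3 libraries.

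T-helper 1 cells are CD4 T cells that secrete interferon gamma. In the textbook scheme, T cell receptor and interferon gamma signals, the latter through a receptor with the ligand-binding chain Ifngr1 and the signalling chain Ifngr2, induce Tbx21 (T-bet), which in turn raises Il12rb2. IL-12 binds a receptor made of Il12rb1 and Il12rb2 and activates Stat4, and the IL-18 receptor, made of Il18r1 and Il18rap, then lets IL-18 add to interferon gamma output. Runx3 and Hlx are partners of Tbx21 at the Ifng locus, and Eomes is a T-box paralog of Tbx21 best known in CD8 T cells and NK cells.

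The deposited counts summed to 4764598, 2568928 and 2815439 in replicates 1, 2 and 3, and 3 features of the libraries bear on every level below. Reads were counted with strand setting 1 per the file headers. There were 87 pairs of a noncoding gene lying inside exons of an opposite coding gene. In 69 of these pairs the noncoding gene exceeded the coding gene in counts per kilobase in all 3 libraries. Genes with exon bases opposite another gene's exons were 16.2% of the 50600 genes. They held 56.1%, 60.3% and 71.6% of the counts in replicates 1, 2 and 3. Whether the deposited counts hold the reads of each gene's own strand was not tested, for genes with or without opposite exons. A count near 0 below is therefore a count and not a statement that mRNA was absent, and a detected level is likewise a level of counts. Replicate 2 had few genes at low counts: 430 genes had exactly 1 count, against 1912 in replicate 1 and 1888 in replicate 3. Of 8843 coding genes with at least 10 counts in both other libraries, 178 had 0 in replicate 2, against 0 of 8211 for replicate 1 and 6 of 8577 for replicate 3. Counting intervals below cover counting error only and are too narrow for that spread. Xist had 807, 1110 and 4 counts and the Y-linked gene Ddx3y 161, 0 and 81 in replicates 1, 2 and 3, under the common donor record.

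**Figure D1:**
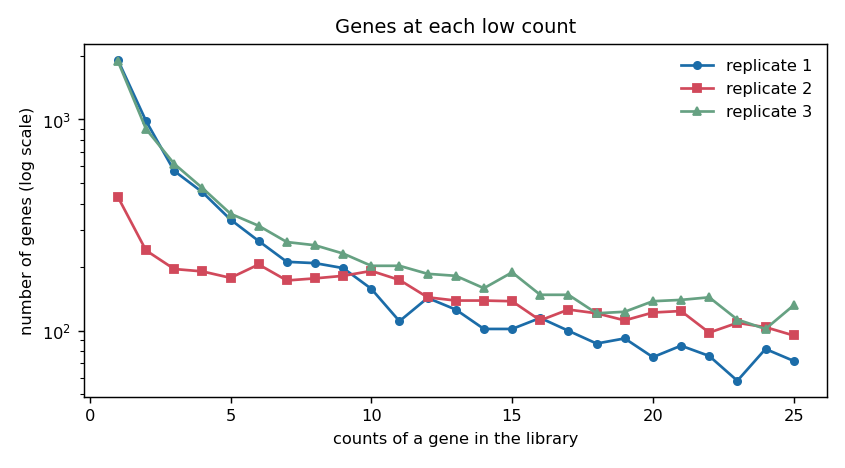
Number of genes (vertical axis, log scale) with each count from 1 to 25 (horizontal axis) in replicates 1, 2 and 3. Replicate 2 starts at 430 genes with 1 count and has 192 at 10 counts, while replicates 1 and 3 start at 1912 and 1888 and have 158 and 203 at 10 counts.

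Markers of T cells were present throughout, and those of T-helper 1 cells in part. All 8 T cell markers reached a level of 1 TPM (counts per kilobase of exon, scaled to a sum of 1000000 in each library) in every library, which is called detected here. Over all 21764 coding genes the share detected was 39.8%, which applies to each marker list below. Of 6 T-helper 1 markers, Stat4 and Il12rb2 were detected, and Il12rb2 has 1519 exon bases opposite another gene. In TPM over all genes, Tbx21 reached 1 TPM in replicate 2 alone. Ifng, the chemokine receptor Cxcr3 and Il18r1 were under 1 TPM in every library. In bulk libraries, fewer cells of a type and less RNA per cell cannot be told apart. Of the markers of other cells that use these genes, 0 of 6 NK and innate lymphoid genes were detected, their summed level lying between 0 and 0.150 TPM, with Ncr1, Klrd1, Klre1, Tyrobp and Fcer1g at 0 counts in each library. Of 5 CD8 T cell genes, 1 was detected (Cd8b1, 17.4 TPM ± 10.7; SD, n = 3), Cd8a and Gzmk were at 0 counts in each library, and the summed level ran from 9.82 to 29.5 TPM. Of 4 mast cell and basophil genes 0 were detected, with a summed level of 0 to 2.07 TPM and Kit, Fcer1a and Mcpt8 at 0. Of 5 macrophage and dendritic cell genes, 2 were detected and the summed level ran from 113 to 140 TPM. Nearly all of it was Csf1r, at 1338, 698 and 1066 counts, which has 871 exon bases opposite another gene. Cd68, which has none, had 10, 2 and 6 counts (3.53, 1.25 and 3.00 TPM), and Adgre1, Lyz2 and Itgax were at 0 counts in each library. Of 4 B cell genes 0 were detected, with Cd79a at 27, 0 and 17 counts, Ms4a1 and Pax5 at 0, and a summed level of 0 to 8.22 TPM. The share of these cells in the levels of the 10 genes was not tested.

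The bases before the gene starts are shown for 4 genes that the results turn on: Il12rb2 and Runx3, detected in every library, and the T-box pair Tbx21 and Eomes, whose counts were highest in replicate 2. Each run is the 250 bases before the RefSeq start on GRCm38.p6, the assembly called mm10, written 5′ to 3′ on the gene's strand. Capitals mark matches to a STAT site (TTCNNNGAA), a RUNX site (TGTGGT), a T-box half-site (AGGTGTGA) or an NF-kB site (GGG and TTCC with 3 bases between), searched on both strands; no match overlapped another. The windows are chr6:67376189-67376438 (minus strand), chr4:135120395-135120644 (plus), chr11:97115332-97115581 (minus) and chr9:118477939-118478188 (plus) in the order printed, the Runx3 window being that of the first of its 2 listed starts.
Il12rb2: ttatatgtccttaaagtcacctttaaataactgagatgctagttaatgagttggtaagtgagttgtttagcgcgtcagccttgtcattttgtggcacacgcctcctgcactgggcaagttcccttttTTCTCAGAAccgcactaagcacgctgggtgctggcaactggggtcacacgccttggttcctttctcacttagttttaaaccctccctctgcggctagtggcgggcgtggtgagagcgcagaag
Runx3: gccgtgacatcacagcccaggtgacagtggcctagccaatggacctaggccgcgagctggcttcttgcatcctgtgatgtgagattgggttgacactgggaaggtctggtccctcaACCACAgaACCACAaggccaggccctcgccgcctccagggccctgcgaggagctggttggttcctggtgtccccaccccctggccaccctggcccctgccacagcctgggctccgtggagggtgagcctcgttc
Tbx21: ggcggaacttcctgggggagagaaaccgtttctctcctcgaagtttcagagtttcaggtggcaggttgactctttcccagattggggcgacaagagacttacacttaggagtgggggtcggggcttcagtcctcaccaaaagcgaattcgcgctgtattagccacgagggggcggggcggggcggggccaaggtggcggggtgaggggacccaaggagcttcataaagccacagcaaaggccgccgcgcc
Eomes: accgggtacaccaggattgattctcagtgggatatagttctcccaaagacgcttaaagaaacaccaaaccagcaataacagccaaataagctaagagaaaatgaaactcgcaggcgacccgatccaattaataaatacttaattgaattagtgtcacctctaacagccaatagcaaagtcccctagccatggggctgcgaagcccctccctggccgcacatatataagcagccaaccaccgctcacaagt

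The Il12rb2 window held 1 STAT match, beginning 123 bases before the start, and the Runx3 window held 2 RUNX matches on the minus strand, beginning 134 and 126 bases before the start. A further STAT pair lay 219 and 152 bases before the last of 3 listed Il18r1 starts. Windows were listed for 9 of the 10 genes, without Il12rb1. Over all 32851 listed windows, 7.02% held a STAT match, 14.0% a RUNX match, 1.12% a T-box match and 4.65% an NF-kB match; among the 13 windows of these genes the numbers were 2, 1, 0 and 0. A match is a run of letters and was not linked to binding in these cells.

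The receptor chain Il12rb1 and the chain Il12rb2 were the highest of the 10 genes, followed by Runx3, Ifngr1 and Stat4. These 5 were detected, against 39.8% of 21764 coding genes. Il18r1, Hlx and Il18rap were under 1 TPM in every library, as were 51.1% of coding genes, and Hlx and Il18rap had 0 counts in each, as had 41.4%. With TPM recomputed over clear genes, those with no exon inside an opposite gene's body, 5 of the 8 clear genes among the 10 were detected against 37.4% of 15865 clear coding genes. These were Runx3, Stat4, Il12rb1, Ifngr1 and Tbx21, since Tbx21 then had 1.15, 11.1 and 2.82 TPM and Il12rb2 and Eomes were not clear. Clear genes held between 17.9% and 31.1% of the TPM over all genes, depending on the library. In TPM over all genes, Tbx21 and Eomes passed 1 TPM in replicate 2 alone. The median of the 10 mean levels was 2.86 TPM, against 0.378 TPM over all coding genes. No neighbours in the order of mean TPM had ranges that were apart: each gene's lowest library lay at or below the highest library of the next.

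**Figure D2:**
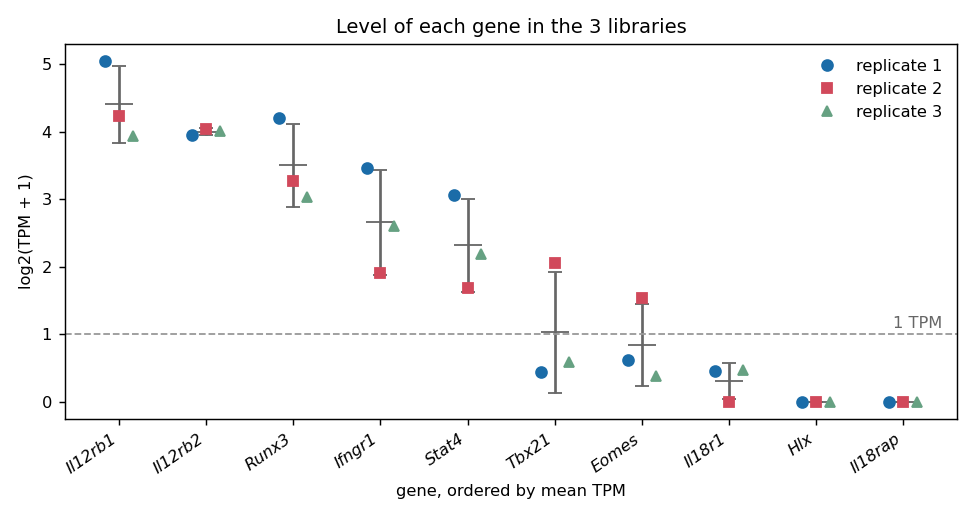
Level of each of the 10 genes in replicates 1, 2 and 3 as log2(TPM + 1), ordered by mean TPM, with the mean and SD (n = 3) in grey and a dashed line at 1 TPM. Il12rb1, Il12rb2, Runx3, Ifngr1 and Stat4 lie above the line in every library, Tbx21 and Eomes cross it in replicate 2, and Il18r1, Hlx and Il18rap stay below it.

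Among the regulators, Tbx21, the T-box factor that defines the lineage (ENSMUSG00000001444.2, chromosome 11 from 97098071 to 97115331, minus strand of mm10), had 2, 10 and 2 counts in the order of the replicates, or 0.357, 3.15 and 0.506 TPM. Replicate 2 was high and the other 2 were alike. In counts per 1000000 counts of the library (CPM), its exact 95% interval in replicate 2 was 1.87 to 7.16, which lay above that of replicate 1 (0.0508 to 1.52) and overlapped that of replicate 3 (0.0860 to 2.57). Without replicate 2, 4 counts remained.

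Eomes, the T-box paralog (ENSMUSG00000032446.14, chromosome 9 from 118478212 to 118486132, plus strand), had 5, 10 and 2 counts, or 0.534, 1.89 and 0.303 TPM. It was highest in replicate 2 as well, and its intervals overlapped in all pairs of libraries. Both genes had most of their counts in replicate 2, as did 18.5% of the 1040 coding genes with 10 to 25 counts in all; replicate 1 held most in 52.5% of these and replicate 3 in 11.9%. Replicate 2 is the library with few low counts described above, and the part of that feature in these 2 values was not tested. Without replicate 2, 7 Eomes counts remained.

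Runx3, the Runt-family factor that acts with Tbx21 at Ifng and silences Cd4 in CD8 T cells (ENSMUSG00000070691.10, chromosome 4 from 135120652 to 135177990, plus strand), was the highest regulator. It had 196, 55 and 57 counts, or 17.4, 8.62 and 7.17 TPM (11.1 ± 5.52; SD, n = 3). Replicate 1 was high, and its CPM interval of 35.6 to 47.3 lay above those of both other libraries, which overlapped each other.

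Stat4, the transcription factor activated by IL-12 (ENSMUSG00000062939.11, chromosome 1 from 51987148 to 52107189, plus strand), had 64, 11 and 22 counts, or 7.33, 2.23 and 3.57 TPM (4.38 ± 2.65). Replicate 1 was highest and replicate 2 lowest, with CPM intervals of 10.3 to 17.2 and 2.14 to 7.66 that did not overlap. Hlx, a homeobox partner of Tbx21 (ENSMUSG00000039377.7, chromosome 1 from 184727140 to 184732619, minus strand), had 0 counts in each library. A count of 3 would be 0.584, 1.03 and 0.828 TPM in replicates 1, 2 and 3, a limit for counting error alone. It does not cover the few low counts of replicate 2 or the strand of the counts described above.

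Among the receptor chains, Il12rb1, the chain shared by the IL-12 and IL-23 receptors (ENSMUSG00000000791.9, chromosome 8 from 70808449 to 70821424, plus strand), had 296, 93 and 93 counts, or 32.0, 17.8 and 14.2 TPM (21.3 ± 9.39; SD, n = 3). Its mean lay above 85.0% of coding genes. Replicate 1 was high, with a CPM interval of 55.2 to 69.6 above those of both others. This placement of replicate 1 above both other libraries held for Il12rb1 and Runx3 among the 8 genes with a count, and for 11.0% of the 12762 coding genes with a count. The opposite placement, replicate 1 below both others, held for 2.30% of these coding genes. Replicate 2 lay above both others for 7.51% and below for 5.14%, and replicate 3 above for 4.07% and below for 19.5%, and 0 of the 8 genes showed any of these 5 placements.

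Il12rb2, the inducible chain of the IL-12 receptor (ENSMUSG00000018341.12, chromosome 6 from 67291318 to 67376188, minus strand), had 123, 75 and 91 counts, or 14.4, 15.5 and 15.1 TPM (15.0 ± 0.565). Its CPM intervals overlapped in all pairs of libraries. The level cannot be assigned to Il12rb2 alone, because 1519 of its 3794 exon bases (40.0%), in 2 of 17 exon blocks at its end, lie opposite exons of Serbp1, an mRNA-binding protein gene. Serbp1 had 9498, 4379 and 3801 counts, which is 14.6, 11.0 and 7.88 times the counts per kilobase of Il12rb2 in replicates 1, 2 and 3. The share of Il12rb2 counts that fell on its remaining 2275 bases is not in the tables, and the part of the overlap in its level was not tested. Its SD in log2(TPM + 1), 0.05, was 0.35 in TMM-scaled CPM, so the closeness of its 3 TPM values depends on the scaling.

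**Figure D3:**
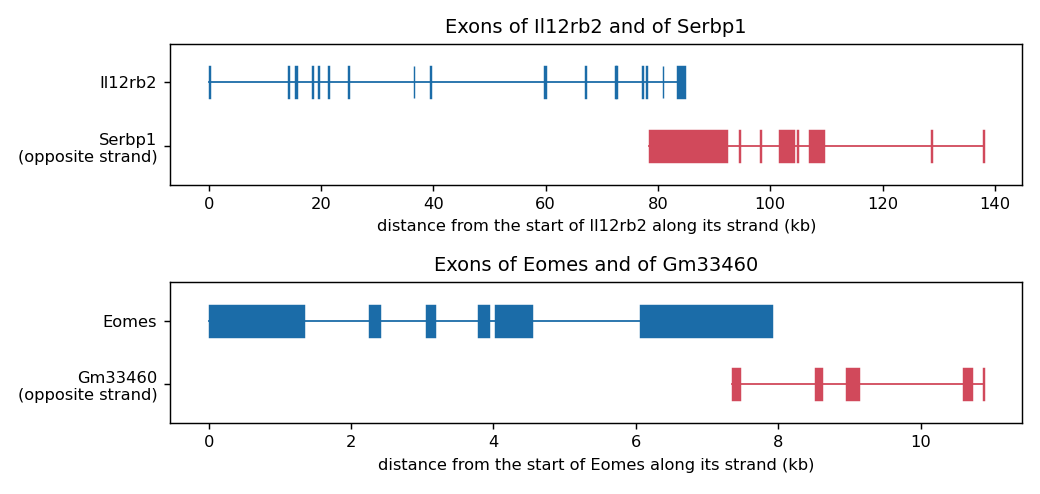
Exons (boxes) of Il12rb2 with Serbp1 and of Eomes with Gm33460, at their distance in kilobases from the start of Il12rb2 or Eomes along its own strand. The end of Il12rb2 lies inside the long last exon block of Serbp1, sharing 1519 bases, and the last exon of Eomes shares 118 bases with Gm33460.

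Eomes is the other gene with opposite-strand exons: 118 of its 4155 exon bases (2.84%) lie opposite the antisense gene Gm33460, and these are 22.0% of the bases of Gm33460. Gm33460 had 4, 21 and 9 counts, and was highest in replicate 2, as Eomes was. Per kilobase it had 6.20, 16.3 and 34.9 times the counts of Eomes in replicates 1, 2 and 3. The other 8 genes shared no exon base with an opposite gene. Of these, 2 had an opposite gene within an intron: Gm16224 in Runx3 had 0, 0 and 1 counts, and the pseudogene Gm3940 in Stat4 had 2, 0 and 1.

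Both chains of the IL-18 receptor were near the floor. Il18r1, the ligand-binding chain (ENSMUSG00000026070.15, chromosome 1 from 40465552 to 40500854, plus strand), had 4, 0 and 3 counts, or 0.368, 0 and 0.392 TPM, and its intervals overlapped. In recomputed TPM over clear genes these counts were 1.18, 0 and 2.18, with the 0 in replicate 2. Il18rap, the accessory chain (ENSMUSG00000026068.11, chromosome 1 from 40515362 to 40551705, plus strand), had 0 counts in each library. A count of 3 would be 0.197, 0.348 and 0.279 TPM in replicates 1, 2 and 3, with the same limits as for Hlx. With 3 counts over the group in place of 0, the ratio of Il18r1 to Il18rap per kilobase was 3.27. It was 1.40 without replicate 1 and 1.87 without replicate 3. The counting error of the 7 Il18r1 counts is not included, so this ratio is no confidence limit.

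Ifngr1, the ligand-binding chain of the interferon gamma receptor (ENSMUSG00000020009.12, chromosome 10 from 19591949 to 19610229, plus strand), had 64, 10 and 23 counts, or 9.97, 2.75 and 5.08 TPM (5.94 ± 3.68; SD, n = 3). Replicate 1 was high and replicate 2 low, with CPM intervals of 10.3 to 17.2 and 1.87 to 7.16 that did not overlap.

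**Figure D4:**
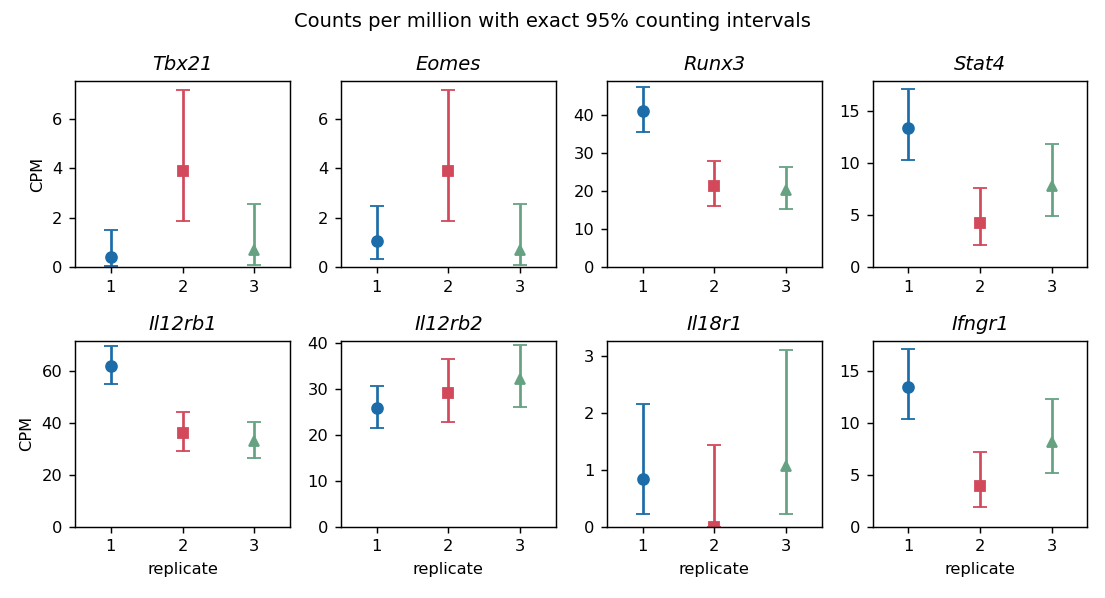
CPM of the 8 genes with a count in replicates 1, 2 and 3, with exact 95% counting intervals as bars and a vertical axis from 0 in each panel. Runx3 and Il12rb1 in replicate 1 lie above both other libraries, Tbx21 and Eomes are highest in replicate 2, and the Il12rb2 intervals overlap.

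The genes did not all peak in the same library. Runx3, Stat4, Il12rb1 and Ifngr1 were highest in replicate 1, Tbx21, Eomes and Il12rb2 in replicate 2 and Il18r1 in replicate 3, which is 4, 3 and 1 of 8. Over 12762 coding genes with a count the shares were 56.3%, 27.8% and 15.9%. In recomputed TPM over clear genes, the 6 clear genes with a count were highest in replicate 1 for 4, replicate 2 for 1 (Tbx21) and replicate 3 for 1 (Il18r1), against 40.6%, 29.9% and 29.5% of 8227 clear coding genes. In edgeR, 5 of the 10 genes passed the filter on low counts. Their coefficients of variation were 0.291 for Il12rb1, 0.305 for Il12rb2, 0.314 for Runx3, 0.350 for Stat4 and 0.353 for Ifngr1. The method draws each value toward the trend over all genes, so these are not raw spreads. The median over 9466 genes was 0.308, and Stat4 and Ifngr1 lay above 87.0% and 90.1% of these genes. Under TMM scaling, Il12rb2 was highest in replicate 3 instead, at 23.2, 27.6 and 38.0 CPM in replicates 1, 2 and 3.

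Partner chains and paralogs were then compared within each library, as log2 ratios of counts per kilobase with 0.5 counts added. Of 6 such ratios, those of Runx3 to Tbx21 and Runx3 to its paralog Runx1 had the same sign in 3 of 3 libraries. Runx3 exceeded Tbx21 by 5.29, 1.39 and 3.52 in replicates 1, 2 and 3 (mean 3.40 ± 1.95; SD, n = 3), smallest in the library with 10 Tbx21 counts. The two-sided exact sign-flip test gave p = 0.25 (adjusted p = 0.6 over 6 ratios), the smallest p that n = 3 allows being 0.25.

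Runx3 exceeded Runx1, the family member of developing thymocytes and naive T cells, by 1.67, 1.27 and 1.22 in replicates 1, 2 and 3 (mean 1.39 ± 0.25; SD, n = 3). This ratio also had exact p = 0.25 (adjusted p = 0.6). The summed counts gave a Runx3 to Runx1 ratio of 2.83, with an exact 95% counting interval of 2.39 to 3.36. Runx1 had 145, 54 and 58 counts and has 106 exon bases opposite another gene. The difference rests on its longer exon length, since with no length scaling the mean log2 ratio was 0.14.

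For 3 further ratios the sign differed between libraries. Il12rb2, with the counts opposite Serbp1 included, was -1.15, -0.19 and 0.08 relative to Il12rb1, Ifngr2 relative to Ifngr1 was -0.20, 1.80 and 0.42, and Eomes relative to Tbx21 was 0.40, -0.74 and -0.74 on the log2 scale in replicates 1, 2 and 3. The exact p was 0.5 for each of these 3 (adjusted p = 0.6).

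Against genes at 0 counts, ratios were taken with 3 counts over the group in place of 0. The counting error of the other gene is not included, so these values are no confidence limits. On this basis the counts listed for Il12rb2 were 63.2-fold higher per kilobase than those for Il23r, and 36.3-fold to 46.8-fold with a replicate left out. Il23r is the IL-23 receptor chain that pairs with Il12rb1, and it lies next to Il12rb2. Because counts on the bases opposite Serbp1 are included, this is no bound for Il12rb2 mRNA itself. Tbx21 was 4.27-fold higher than Hlx, and 1.22-fold higher without replicate 2, which held 10 of its 14 counts. Il18r1, with 7 counts in all, was 3.34-fold higher than Il1rl1, and 1.43-fold higher without replicate 1. Il1rl1 is the IL-33 receptor of T-helper 2 and mast cells, and its exons end 136 bases before those of Il18r1.

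Of the 18 nearest coding neighbours that are not among the 10 genes, 8 were detected and 8 had 0 counts in each library, near the shares of 39.8% and 41.4% over all coding genes. In the IL-1 receptor cluster on chromosome 1, Il1rl1 and Slc9a4, which flank the Il18r1 and Il18rap pair, had 0 counts. Tbkbp1 beside Tbx21, Marc1 beside Hlx, and Olig3 and Il22ra2 beside Ifngr1 were also at 0, as was Il23r. The detected neighbours included Syf2 (52.1 TPM ± 12.6; SD, n = 3) and Clic4 beside Runx3, Cmc1 (49.1 ± 27.2) and Golga4 beside Eomes, Mast3 and Arrdc2 beside Il12rb1, and Osbpl7 beside Tbx21. Dusp10 beside Hlx had 42, 0 and 24 counts, and Gadd45a beside Il12rb2 had 4, 0 and 5, the 0 in each case falling in replicate 2.

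Genes around the receptors and regulators were taken from lists of receptor signalling genes, partners and antagonists of the regulators, and Th1 effector genes. Of 79 genes in 5 lists, 49 (62.0%) were detected, against the 39.8% of all coding genes; the lists were chosen from T cell biology with earlier results of these data known. In the IL-12 and STAT list 10 of 12 were detected, led by the IL-12 receptor kinase Jak2 (695, 413 and 175 counts; 49.2 TPM ± 23.7, SD, n = 3), the IL-21 receptor Il21r (30.7 ± 10.3) and the IL-27 receptor Il27ra (26.6 ± 9.83). Tyk2, the second IL-12 receptor kinase, had 9.66 TPM ± 2.21, and Il23r was the 1 gene under 1 TPM in every library.

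In the IL-18 and IL-1 receptor list 8 of 13 were detected. The adaptor kinases and stress genes shared with other receptors were the highest: Gadd45b, an amplifier of p38 signalling, had 53.7 TPM ± 13.2, Irak4 had 53.6 ± 12.9 and Irak1 had 30.0 ± 10.6 (SD, n = 3), and the adaptor Myd88 had 24.4 ± 10.1. The receptors Il1rl1, Il1r1 and Il1r2 were under 1 TPM in every library, as Il18r1 and Il18rap were. Irak4 has 395 and Myd88 290 exon bases opposite another gene.

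In the interferon gamma list 8 of 11 were detected, led by the kinase Jak1 (48.0 TPM ± 23.3), the phosphatase Ptpn2 (43.5 ± 20.5) and the transcription factor Irf8 (29.8 ± 2.66; SD, n = 3). Ifngr2 had 8.49 TPM ± 1.56. The interferon-induced GTPase Gbp3 was under 1 TPM in every library, while its relative Igtp had 18.0 ± 9.86.

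Among 22 partners and antagonists of the regulators 15 were detected, led by Irf4, a factor induced by T cell receptor signals (232 TPM ± 77.3; SD, n = 3), Tcf7 and Id3 (71.0 ± 20.2). Cbfb, the subunit that Runx proteins need to bind DNA stably, had 48.7 ± 19.1. Twist1 and Prdm1 had 0 counts in each library, and Maf and Zeb2 were also under 1 TPM in every library.

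Of 21 Th1 effector genes 8 were detected and 10 were under 1 TPM in every library, near the shares of 39.8% and 51.1% over all coding genes. Lta, Il2 and Tnf led the list, and the chemokine Ccl4 had 59.7 TPM ± 33.6 (SD, n = 3). Ifng had 1, 0 and 0 counts, Cxcr3 had 0, 0 and 1, and Ccl5 and Havcr2 had 0 in each library. Gzmb, a cytotoxic protease gene and one of the 5 list members with their highest level in replicate 2, had 2, 14 and 0 counts; it was singled out after its values were seen.

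**Figure D5:**
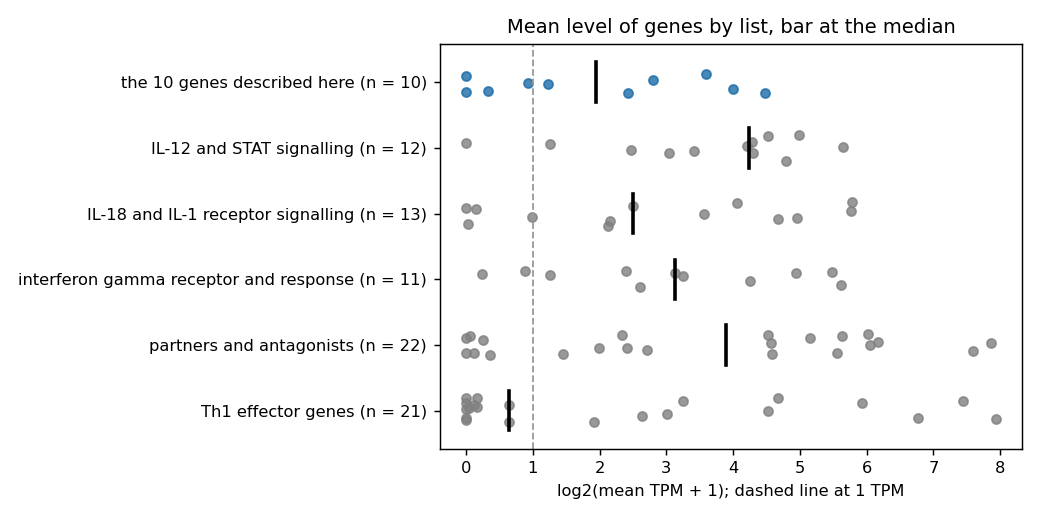
Mean level over the 3 libraries, as log2(mean TPM + 1), of the 10 genes described here and of the genes of 5 lists, 1 point per gene, with a bar at each median and a dashed line at 1 TPM. The IL-12 and STAT list has a median of 18.0 TPM and the Th1 effector list a median of 0.554 TPM, with the 10 genes between them at 2.86 TPM.

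By level and pattern over the 3 libraries, the nearest list gene in log2(TPM + 1) was Traf6 for Runx3 (Euclidean distance 0.293), Ifnar2 for Stat4 (0.298), Myd88 for Il12rb1 (0.361), Ifnar1 for Ifngr1 (0.397) and Stat3 for Il12rb2 (0.547). Ifnar1, a chain of the type I interferon receptor, had 116, 21 and 35 counts and Ifnar2 had 50, 12 and 17, with the highest TPM in replicate 1 and the lowest in replicate 2 as for Ifngr1 and Stat4. Each distance rests on 3 libraries. The nearest genes were picked on these same values, so a shared order of libraries is no separate result. Over coding genes with a count, 56.3% were highest in replicate 1.

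Some markers of other helper subsets were detected beside those of the T-helper 1 list. The T-helper 2 regulator Gata3 had 43, 23 and 23 counts (4.32 TPM ± 0.607; SD, n = 3) and has opposite-strand exons, against 2, 10 and 2 for Tbx21, which has none. In TPM Gata3 was above Tbx21 in 3 of 3 libraries. Detected markers numbered 2 of 6 for T-helper 1, 3 of 6 for T-helper 2, 1 of 5 for T-helper 17, 3 of 4 for regulatory and 3 of 4 for follicular helper cells, against 39.8% of all coding genes. In the T-helper 17 list, 3 of 5 genes had 0 counts in each library and the median level was 0 TPM. Clear genes numbered 5 of 6 in the T-helper 1 list, 4 of 6 in the T-helper 2 list and 4 of 5 in the T-helper 17 list, but 2 of 4 in the regulatory and 1 of 4 in the follicular list. Foxp3 has 590, Cxcr5 110 and Bcl6 21 exon bases opposite another gene. The regulatory markers Il2ra (83.6 TPM) and Ctla4 (39.3 TPM) and the follicular marker Pdcd1 (56.0 TPM) were detected and are clear. The other genes of the regulatory and follicular lists are not clear. Of these, Foxp3 had a mean of 125 TPM, Cxcr5 2.33 and Bcl6 1.74. Il21 was under 1 TPM in replicate 3, and Ikzf2 was under 1 TPM in every library. Whether cells of these subsets were in the samples was not tested. All of these detections share the limit on strand given above.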

How the data were processed

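RNA-seq gene tables of 3 T-helper 1 libraries were used. The authors deposited raw counts of read pairs per gene. Per the file headers these came from featureCounts 1.4.6-p4, run with strand setting 1 against GENCODE vM13 exons of the mm10 assembly. The other deposited column used, the exon length of each gene, is also described per the file headers. Neither the library kit nor an aligner version is given in the sources used here. The labels call the assay total RNA-seq, while their library protocol is named for poly(A) RNA.

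Of 50600 identifiers, 50376 were named from GENCODE vM21. TPM, CPM and opposite-strand overlaps were computed here from counts, lengths and exon coordinates. Clear genes have no exon inside an opposite gene's body (15865 of 21764 coding genes). Detected means at least 1 TPM in every library. Ratios used 0.5 added counts and exact sign-flip tests. Where a gene had 0 counts throughout, a ratio with 3 counts in its place replaced the planned test, without the counting error of the other gene. Of the 6 ratios tested, 1 is not reported here, nor are some neighbour and marker genes. Counting intervals are exact (Poisson, or Clopper-Pearson for ratios) at 95%. Dispersions used edgeR with TMM and filterByExpr, tested on simulated data. In the inside-exon pairs, the noncoding gene shares at least 500 bases and 90% of its length, with at least 30 counts in all for the pair.

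Named genes are the 10 genes, their opposite and neighbouring genes, the ratio pairs, the 3 highest and up to 4 undetected genes of each list, the nearest list genes and the helper markers; others, added to describe a gene's pathway or a library, were picked once their values were known. The members and lists were chosen with earlier results of these data known. Motifs, low-count checks and the 10 to 25 count class were chosen after the data were seen. Promoter sequences come from RefSeq on GRCm38.p6. Alternatives were other cutoffs, pseudocounts, scalings, clear genes and each replicate left out. The p-values test the mean log2 ratio over these 3 samples by flipping signs, and do not measure the spread between the samples. Dispersions were fitted in R 4.3.3 with edgeR 4.0.16, and with DESeq2 1.42.0 as an alternative. Tables and figures were made in Python 3.11.15 using SciPy 1.17.1, pandas 2.3.3, matplotlib 3.10.9 and numpy 2.4.6.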

Additional observations from a re-analysis of the deposited data

How the results depend on the processing

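The 5 detected genes numbered 5 in recomputed TPM over clear genes, where Tbx21 counted and Il12rb2, which is not clear, did not. They also numbered 5 at a minimum of 10 counts in every library and with any replicate left out, and 3 at 5 TPM. Detected list genes numbered 30 over clear genes, of which the lists hold 50 of 79, and between 49 and 53 on leaving out a replicate. The log2 ratio of Eomes to Tbx21 turned from -0.36 to 0.38 with no length scaling, and ran from -0.74 to -0.17 with a replicate left out. The other 4 ratios reported kept the sign of the group value under every alternative run, but 3 of them came near 0. Runx3 to Runx1 was 0.14 with no length scaling. Il12rb2 to Il12rb1 was -0.06 without replicate 1, and Ifngr2 to Ifngr1 was 0.11 without replicate 2. No ratio could pass a threshold of 0.05 with 3 libraries. With 3 counts in place of 0, the ratio of Il12rb2 over Il23r was 96.3 with no length scaling and 36.3 to 46.8 on leaving out a replicate. On the same basis that of Tbx21 over Hlx was 4.67 with no length scaling. With a replicate left out it ran from 1.22, without replicate 2, to 3.66. That of Il18r1 over Il18rap was 2.33 with no length scaling. With a replicate left out it ran from 1.40, without replicate 1, to 3.27. The common coefficient of variation of edgeR, 0.312, ran from 0.237 (DESeq2) to 0.433 (no filter). No paired analysis was possible because there was 1 group. The SD of Tbx21 in log2(TPM + 1) was 0.89, and 0.11 without replicate 2. Tbx21, Eomes, Il18r1, Hlx and Il18rap had 17 counts or fewer in all, and the part of depth in that was not tested.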
